A study of Rattus norvegicus with 17 samples.

Results

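The genes described here are 9 genes that move or bind zinc, among the 34322 genes of a count table of rat hippocampus. They are the zinc importers Slc39a12, Slc39a8, Slc39a10 and Slc39a14, the zinc exporters Slc30a1, Slc30a3, Slc30a4 and Slc30a10, and Mt3, a zinc-binding metallothionein. They were chosen by symbol, with their values in these libraries already known, because Slc39a12 had appeared to sit at separate levels in different animals while the other zinc genes had not. The diet pattern of Slc39a12 is therefore given as a description with no test, and only the other 8 genes were tested between diets or sexes.

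RNA was sequenced from the hippocampus of 17 adolescent rats, 36 to 38 days old, whose dams had been on 1 of 3 diets. The ethanol group (ET, n = 5) came from a dam on a liquid diet with 6.7% ethanol, which supplied 36% of its calories, from gestational day 0 to day 20. The pair-fed group (PF, n = 6) came from a dam given matched amounts of the liquid diet with no ethanol, and the ad libitum group (AD, n = 6) from a dam with free access to chow. After that day no dam received ethanol, and each had free access to control diet. Each diet was 1 litter, so diet and litter cannot be told apart, and the p-values below measure the spread among littermates. The ET group held 2 females and 3 males, and the PF and AD groups each held 3 females and 3 males by their labels.

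Zinc transporters fall into 2 families that act in opposite directions. ZIP proteins, encoded by Slc39a genes, carry zinc into the cytosol from outside the cell or from organelles, and ZnT proteins, encoded by Slc30a genes, carry it out of the cytosol or into vesicles. In the hippocampus, ZnT3, the product of Slc30a3, loads zinc into the synaptic vesicles of glutamatergic terminals, above all those of the mossy fibres. Metallothioneins buffer free zinc, and the transcription factor MTF1 responds to zinc by binding short metal response elements before genes such as Slc30a1 and the metallothioneins.

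The promoter of Slc39a12 is shown because the results below turn on this gene, and those of Slc30a1 and Mt3 because they hold the core of the metal response element. Each run is the 250 bases before the annotated start, taken from RefSeq on the assembly GRCr8 and written 5′ to 3′ on the strand of the gene. Capitals mark matches to TGCACNC or TGCGCNC on either strand, where overlapping matches would be counted separately.
Slc39a12 (chr17:82262107-82262356, plus strand): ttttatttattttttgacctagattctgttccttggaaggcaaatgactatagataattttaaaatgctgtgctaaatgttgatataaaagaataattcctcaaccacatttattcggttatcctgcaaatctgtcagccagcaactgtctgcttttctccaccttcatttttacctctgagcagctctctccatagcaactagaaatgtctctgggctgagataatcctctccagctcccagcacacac
Slc30a1 (chr13:106021769-106022018, plus strand): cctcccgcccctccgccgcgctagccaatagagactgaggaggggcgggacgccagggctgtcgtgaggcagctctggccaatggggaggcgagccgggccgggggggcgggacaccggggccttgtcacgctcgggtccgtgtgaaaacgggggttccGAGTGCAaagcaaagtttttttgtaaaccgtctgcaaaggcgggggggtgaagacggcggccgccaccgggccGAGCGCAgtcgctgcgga
Mt3 (chr19:10856081-10856330, minus strand): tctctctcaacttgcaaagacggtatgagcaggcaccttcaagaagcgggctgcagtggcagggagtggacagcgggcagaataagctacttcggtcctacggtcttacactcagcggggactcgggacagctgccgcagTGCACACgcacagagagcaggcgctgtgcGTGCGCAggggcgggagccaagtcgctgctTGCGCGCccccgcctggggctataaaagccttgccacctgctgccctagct
The Slc39a12 window held 0 matches, the Slc30a1 window 2 and the Mt3 window 3. Of the 9 genes, 7 had a promoter sequence, all but Slc39a14 and Slc30a10, and the Slc30a4 window held 2 matches while those of Slc39a8, Slc39a10 and Slc30a3 held 0. Of 33469 promoters of the same length, 20.6% held at least 1 match. A match describes the letters of the window and is no evidence of a bound factor.

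The deposited counts, averages over 3 technical replicates, summed to between 10853947 and 17498392 fragments per library, with a median of 13538433. The study left 3 libraries out of its final analysis, ET replicate 2, the PF animal 11f6 and AD replicate 4, and these had the highest summed level of 10 choroid plexus markers, at 9678, 10500 and 11058 CPM (counts scaled to the library total) against 210 to 1760 in the other 14. Levels below are given for all 17 libraries, scaled by TMM to a common library size as normalized counts, and tests used the 14 libraries (4 ET, 5 PF and 5 AD). Markers of hippocampal neurons, among them Slc17a7, the vesicular glutamate transporter, and of astrocytes were detected in every library. The summed level of the 8 astrocyte markers was 4535 to 5513 CPM in ET, 4511 to 5438 in PF and 4287 to 5170 in AD. The 5 oligodendrocyte markers summed to between 18964 and 25077 CPM in the ET libraries, with a median of 23879. They summed to between 14146 and 18768 in PF, with a median of 16441, and to between 16078 and 23511 in AD, with a median of 20180. Every ET library therefore lay above every PF library, and AD overlapped both. By the summed level of 4 Y-linked genes, 15 of the 17 libraries matched their sex label and 2 AD libraries did not (replicates 1 and 2), so the sexes were compared in ET and PF only.

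Slc39a12, which encodes the importer ZIP12, differed 15.8-fold between its lowest and highest library, from 31.1 to 493 normalized counts. In ET it was at 34.05 in replicate 1, and at 397, 493, 486 and 439 in replicates 2 to 5. In PF it was at 38.01, 33.7, 36.7 and 31.1 in replicates 1, 2, 3 and 6, at 33.8 in animal 11f5 and at 53.6 in animal 11f6. In AD it was at 269, 32.8, 242, 55.5, 33.7 and 222 in replicates 1 to 6. PF was therefore low throughout, AD was split evenly between low and high libraries, and ET was high in every library but 1. The deposited counts behind these values were 30.3 to 50.3 in the low libraries and at least 192 in the others.

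**Figure D1:**
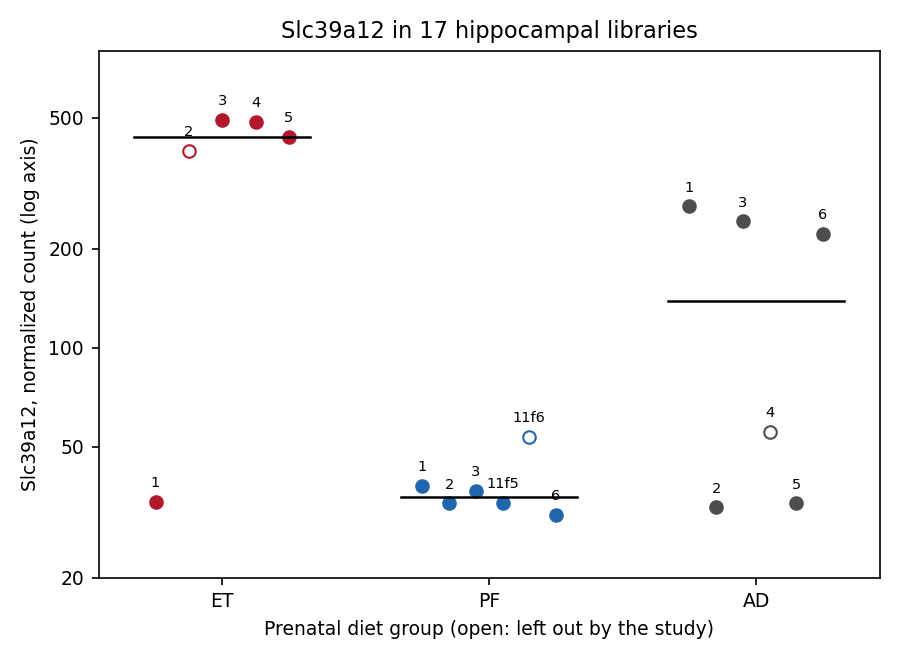
Normalized counts of Slc39a12 (log axis) in the 17 libraries by diet, with the replicate number or animal beside each point, a line at the median of each diet and open circles for the 3 libraries left out by the study. The ET libraries other than replicate 1 sit between 397 and 493, PF lies between 31.1 and 53.6, and AD holds values on both sides of the gap between 55.5 and 222.

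Put in order, the 17 values were cut at their 2 largest steps, a rule that gives 3 bands for any values. Only the 4.0-fold step stood clear, since the second, of 1.47-fold, was close to the 1.41-fold step left uncut. The lowest band held 10 libraries (1 ET, 6 PF and 3 AD) between 31.1 and 55.5 normalized counts. The next library was 4.0-fold higher, and the middle band held 3 AD libraries between 222 and 269. A further step of 1.47-fold led to the 4 ET libraries between 397 and 493, so no ET library fell in the middle band and no AD library in the highest. Within the lowest band there was a step of 1.41-fold below its 2 highest libraries, PF animal 11f6 and AD replicate 4, which are the choroid-rich libraries of those diets. The part of the choroid plexus RNA in that step was not tested.

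The low and high libraries were not split by sex. The 2 ET females stood at opposite ends, at 34.05 in replicate 1 and 493 in replicate 3, and the PF males and females were all low. The summed level of the astrocyte markers was 4535, 5294, 5513, 4939 and 5235 CPM in ET replicates 1 to 5 and 5170, 4609, 5121, 4287, 5035 and 4905 CPM in AD replicates 1 to 6. ET replicate 1 and AD replicates 2 and 4, all low for Slc39a12, had the 3 lowest astrocyte values of these 11 libraries, while AD replicate 5, also low for Slc39a12, lay among the others. In PF, where every library was low for Slc39a12, the astrocyte markers ran from 4511 to 5438 CPM. The diet medians of the oligodendrocyte markers given above stood in the same order as those of Slc39a12, with ET highest and PF lowest. So did those of astrocytes (5235, 4970 and 4954 CPM in ET, AD and PF), leptomeninges (429, 368 and 297) and thalamus (128, 108 and 99.3). The medians of the other marker lists stood in other orders. ET replicate 1, low for Slc39a12, had the highest oligodendrocyte value of the 17 libraries at 25077 CPM. The part of astrocyte, oligodendrocyte, leptomeningeal or thalamic content in the Slc39a12 levels was not tested. In tissue RNA, fewer cells of a type and less RNA per cell cannot be told apart.

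Over the 14 libraries, the log2 fold change of Slc39a12 was 3.38 for ET against PF (a fold of 10.4), 1.19 for ET against AD (2.29) and -2.19 for PF against AD (0.219). These comparisons share their groups, and the values summarize mixtures of the bands above. Leaving out 1 library moved the ET against PF value between 3.20 and 3.76. The ET value covers 1 low and 3 high libraries, and the AD value 2 low and 3 high. Among the 16265 genes that passed the filter on low counts over the 3 diets, the median gene had a coefficient of variation of 11.6% over the 17 libraries and a highest value 1.54-fold above its lowest. Slc39a12 had a coefficient of variation of 105%, and 1.79% of the genes had one at least as high.

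The annotated neighbours of Slc39a12 varied over a narrower range. Mrc1, the mannose receptor of macrophages and the nearest protein-coding gene before it, ranged from 48.4 to 129 normalized counts (2.68-fold). Cacnb2, a calcium channel subunit and the first gene after it, ranged from 941 to 1514 (1.61-fold), and Nsun6, an RNA methyltransferase, from 41.2 to 71.8 (1.74-fold). Their Pearson r with Slc39a12 over the 17 libraries was 0.54 for Mrc1, -0.48 for Cacnb2 and 0.16 for Nsun6. The other neighbours were near the limit of detection: Mir511, a microRNA gene, was at 0 counts, LOC120098018 reached at most 0.322 and Tmem236 lay between 1.30 and 5.25 normalized counts. In the GRCr8 gene list a long noncoding RNA, LOC134482753, overlaps Slc39a12. It was not analysed here, and the strand setting of the counting is not given in the sources used here.

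**Figure D2:**
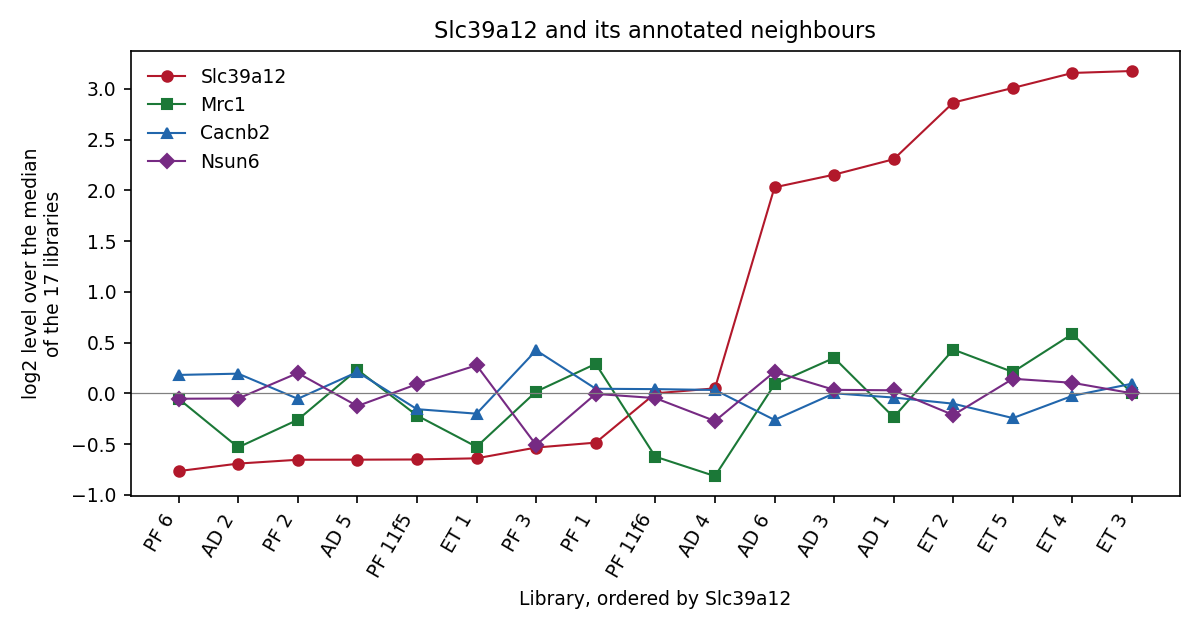
Levels of Slc39a12, Mrc1, Cacnb2 and Nsun6 as log2 over their own median of the 17 libraries, with libraries ordered by Slc39a12. Slc39a12 rises in steps on the right, while the 3 neighbours stay within 1 log2 unit of their medians across the same order.

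The genes whose levels followed Slc39a12 most closely changed far less than it did. Over the 17 libraries (log2 of CPM + 1, among 16264 other genes), the highest Pearson r was that of Prpf6, a spliceosome component, at 0.87, and among the closest were also LOC679791 at 0.82, Rsad2, an interferon-induced antiviral gene, at 0.79 and Folh1, glutamate carboxypeptidase II, at 0.78. Prpf6 ranged from 770 to 880 normalized counts in ET, from 753 to 795 in PF and from 796 to 825 in AD. Over the 11 ET and AD libraries the closest were Dock2, an immune-cell exchange factor, at 0.95, LOC120096893 and LOC120102467, both at 0.89, and Zfp7 and Slfn13, both at 0.88. Dock2 was at 45.5, 64.2, 78.3, 66.5 and 61.5 normalized counts in ET replicates 1 to 5 and at 57.8, 44.0, 59.9, 46.9, 48.2 and 57.1 in AD replicates 1 to 6. In PF, where Slc39a12 was low throughout, Dock2 was at 58.5 to 75.7. These values are descriptions, since the bands give few separate levels and libraries of a diet share a litter.

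The other 8 genes, whose lack of separate levels was known when they were chosen, were not among the genes closest to Slc39a12. By Pearson r with Slc39a12 over the 17 libraries they ranked from 2541 (Slc39a8) to 14983 (Slc39a10) of 16264 genes. Their Pearson r with it over the 17 libraries lay between -0.42 for Slc39a10 and 0.27 for Slc39a8. Over the 11 ET and AD libraries it lay between -0.30 for Slc39a10 and 0.51 for Slc30a1, with 0.45 for Slc30a10, where r over the 17 libraries was -0.01 for Slc30a1 and 0.03 for Slc30a10. Their highest value was 1.27-fold (Slc30a4) to 2.4-fold (Slc39a8) above their lowest. Counts are not divided by gene length here, so levels can be compared between libraries for a gene and not between genes.

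Among the importers, Slc39a8, the ZIP8 carrier of zinc, manganese and cadmium, lay between 56.1 and 78.5 normalized counts in ET (median 66.4) and between 55.4 and 73.2 in PF (median 64.5). In AD it was at 65.5, 64.3, 72.3, 52.9, 70.4 and 127 in replicates 1 to 6. AD replicate 6 was thus the highest of all 17 libraries and the others overlapped across diets. This library also stood apart in 7 markers of the pineal gland, listed after the data were seen, whose summed level was 1108 CPM against at most 9.13 in the other 16 libraries. The part of pineal RNA in the Slc39a8 value was not tested.

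Slc39a10, the ZIP10 importer, lay between 1952 and 2961 normalized counts in ET, 2270 and 3074 in PF, and 2018 and 2561 in AD. Its medians were 2228, 2408 and 2406, and the 3 diets overlapped. Slc39a14, the ZIP14 carrier of zinc, manganese and iron, had medians of 525.6 in ET, 505 in PF and 499 in AD. Its lowest value, 432, was in AD replicate 6 and its highest, 604, in ET replicate 3, so the diets overlapped here too.

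Among the exporters, Slc30a1, the plasma membrane exporter ZnT1, was at 240, 370, 447, 414 and 353 normalized counts in ET replicates 1 to 5. In PF it was at 415, 400, 494 and 423 in replicates 1, 2, 3 and 6, at 379 in animal 11f5 and at 404 in animal 11f6. In AD it was at 344, 333, 354, 423, 352 and 325 in replicates 1 to 6. Every PF library lay above 5 of the 6 AD libraries, all but the choroid-rich replicate 4, and ET spanned both.

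Slc30a10, an exporter best known for manganese, was at 106, 167, 224, 180 and 187 normalized counts in ET replicates 1 to 5, at 183 to 216 in PF (median 201) and at 165 to 193 in AD (median 180). ET replicate 1 was the lowest library for both Slc30a1 and Slc30a10 and the highest for Mt3, and it was also low for Slc39a12. It had the lowest level of Prox1, a marker of dentate granule cells named here after the values were seen, at 111 normalized counts against 244 to 681 in the other 16 libraries. The 6 hippocampal neuron markers, Prox1 among them, summed to 2151 CPM in this library, the lowest of the 17. Slc17a7 was at 22159 normalized counts there, against 20762 to 27064 in ET replicates 2 to 5. Slc30a3 was at 1966 there, the ET median. Whether the granule cell content of this sample bears on its zinc gene values was not tested. A long noncoding RNA, LOC100911719, overlaps Slc30a10 in the gene list and was at 229 to 310 normalized counts, so reads of the 2 genes may not be separable. For Slc39a10, the overlapping LOC120094685 was at 4.44 to 12.3. The genes that overlap Slc39a8 in the gene list, the pseudogene LOC108350116 and LOC134485807, were not analysed here.

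Slc30a3, the synaptic vesicle transporter, lay between 1719 and 2113 normalized counts in ET and between 1795 and 2174 in AD, with medians of 1966 and 2055. In PF it was at 1512, 1464, 1924, 1584, 1596 and 2396 in replicates 1, 2 and 3, animals 11f5 and 11f6, and replicate 6. Of the PF libraries, 4 were below every library of ET and AD, while PF replicate 6 was the highest of all. Slc30a4, the vesicular transporter ZnT4, varied least, from 1288 to 1639 over the 17 libraries, with medians of 1415 in ET, 1501 in PF and 1468 in AD.

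Mt3, the metallothionein of brain, was at 4498, 3922, 3367, 3919 and 3679 normalized counts in ET replicates 1 to 5. It lay between 3291 and 3991 in PF (median 3429) and between 3368 and 4394 in AD (median 3930). The diets overlapped, with ET replicate 1 and AD replicate 6 highest.

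**Figure D3:**
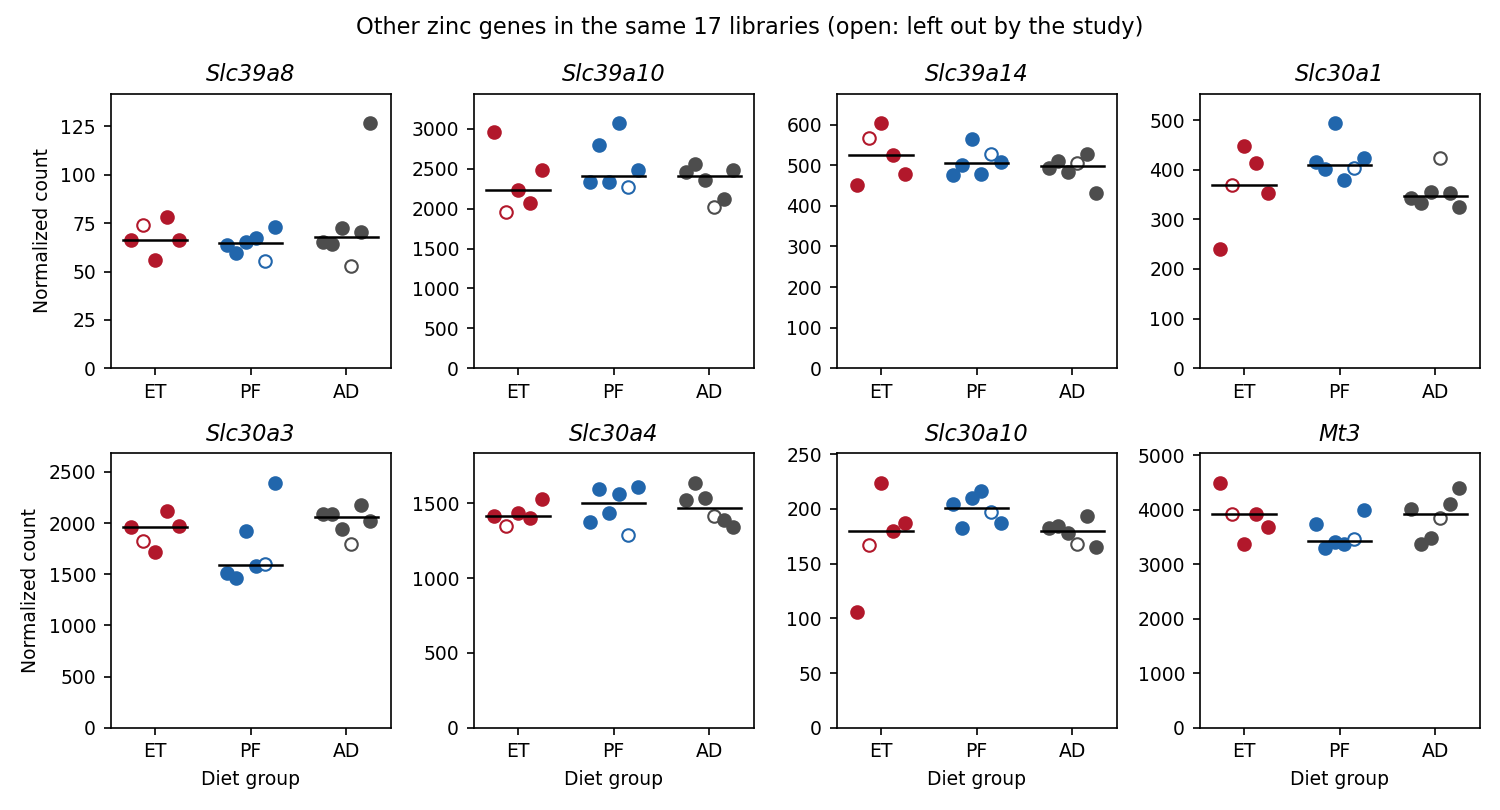
Normalized counts of the other 8 zinc genes in the same 17 libraries by diet, each panel starting at 0, with a line at the median of each diet and open circles for the 3 libraries left out by the study. The diets overlap in all 8 panels, with AD replicate 6 highest for Slc39a8 (127) and ET replicate 1 lowest for Slc30a1 (240) and Slc30a10 (106).

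In ET against PF, the comparison that sets ethanol apart from the liquid diet, 0 of the 8 genes passed the threshold (adjusted p-value below 0.01 and a log2 fold change beyond 1.5 in either direction) by edgeR's quasi-likelihood test with Benjamini-Hochberg adjustment. Of 16068 genes tested, 2.17% passed it. The 8 genes differed by at most 2.4-fold over the 17 libraries, so a log2 fold change beyond 1.5 was out of their reach. The log2 fold changes of the 4 exporters were -0.22 for Slc30a1 (SE 0.16), -0.20 for Slc30a10 (SE 0.17), 0.13 for Slc30a3 (SE 0.14) and -0.07 for Slc30a4 (SE 0.06). Those of the importers were 0.02 for Slc39a8 (SE 0.11), -0.10 for Slc39a10 (SE 0.12) and 0.02 for Slc39a14 (SE 0.09), and that of Mt3 was 0.12 (SE 0.09). By the same edgeR test the adjusted p-values lay between 0.73 and 0.99. Leaving out 1 library moved the value of each of these genes but Slc30a4 by over 1.5 times, and 0 were called. Without ET replicate 1 the values were -0.066 for Slc30a1, -0.027 for Slc30a10, 0.033 for Mt3 and -0.21 for Slc39a10, and without PF replicate 6 that of Slc30a3 was 0.26. At an unadjusted p below 0.05, 0 of the 8 genes passed, as against 11.9% of all genes, and DESeq2 also called 0 of the 8 at the threshold.

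In ET against AD, 0 of the 8 genes passed the threshold by edgeR and 0 by DESeq2, where 0.0127% of 15749 genes did by edgeR. The log2 fold changes ran from -0.25 for Slc39a8 (SE 0.21) to 0.09 for Slc30a1 (SE 0.15), and the adjusted p-values of the edgeR test rounded to 1. At an unadjusted p below 0.05, 0 of the 8 passed, as against 2.74% of all genes. The value of Slc39a8 moved to -0.02 without AD replicate 6.

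In PF against AD, which sets the liquid diet and matched feeding apart from free feeding, 0 of the 8 genes passed the threshold by edgeR and 0 by DESeq2, where 2.05% of 15960 genes did by edgeR. Slc30a1 was 1.24-fold higher in PF, a log2 fold change of 0.31 (SE 0.07). Its adjusted p-value of 0.021 by edgeR's quasi-likelihood test was below 0.05 but its fold was under the threshold, and 5.17% of genes had an adjusted p-value below 0.05. All 5 PF libraries of the 14 were above all 5 AD libraries, a separation in either direction found in 6.66% of genes. In the 17 libraries the diets overlapped through AD replicate 4, and the adjusted p-value was then 0.10. Over 19 alternative settings it ranged from 0.0050 to 0.25, the latter in 1 fit of the 3 diets, and it was below 0.05 in 16 of them. Without AD replicate 2 it was 0.064.

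Slc30a10 had a log2 fold change of 0.15 in PF against AD (SE 0.07), with an adjusted p-value of 0.29 in the edgeR fit. At an unadjusted p below 0.05, 2 of the 8 genes passed, Slc30a1 and Slc30a10, as against 16.4% of all genes. Slc30a3 was at -0.21 (SE 0.12) with an adjusted p-value of 0.42 by edgeR. Without PF replicate 6, its highest library, the difference was -0.34 and the adjusted p-value 0.025. For Slc39a8 the log2 fold change was -0.26 (SE 0.18), for Mt3 -0.12 (SE 0.08), and the others lay between 0.03 and 0.12. Without AD replicate 6 the Slc39a8 value was -0.03.

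**Figure D4:**
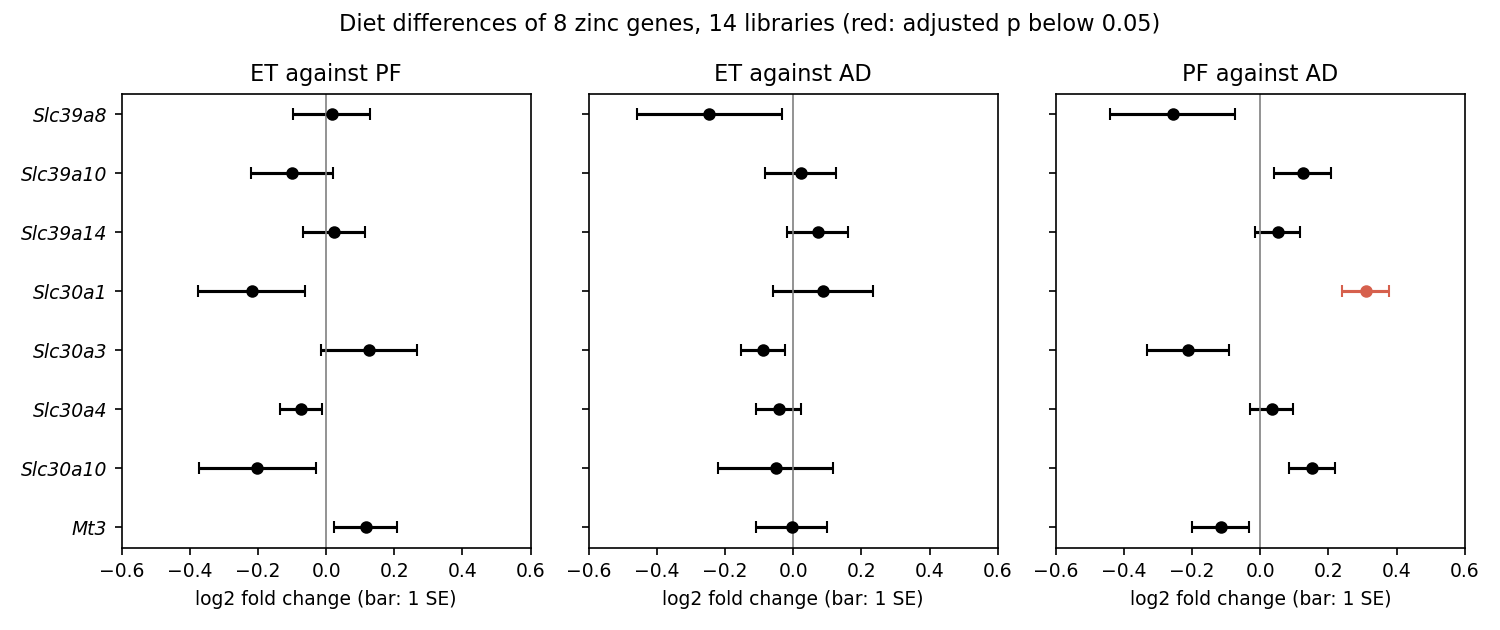
Log2 fold changes of 8 zinc genes in the 3 diet comparisons of the 14 libraries (4 ET, 5 PF and 5 AD), with bars of 1 standard error and a line at 0. Slc30a1 in PF against AD, at 0.31, is the 1 value in red (adjusted p-value below 0.05), and every value lies between -0.26 and 0.31.

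Among the wider list of 30 zinc genes (the ZIP and ZnT families, metallothioneins and Mtf1), 25 passed the filter on low counts over the 3 diets, including all 9 described above, and Slc39a2, Slc39a4, Slc30a2, Slc30a8 and Mt4 did not. Beside Slc39a12, 24 were tested in each comparison, and 0 passed the threshold in ET against PF, in ET against AD or in PF against AD by edgeR. None of the 24 differed by more than 2.4-fold over the 17 libraries, so none could pass it. Their median log2 fold change was 0.04, 0.0039 and -0.04 in the 3 comparisons, where the median over all genes was within 0.01 of 0. In ET against PF, 3 of the 24 were at an unadjusted p below 0.05, where 11.9% of all genes were. All 3 had higher values in ET and 0 had lower ones, as against 4.72% and 7.21% of all genes, and they were Mt1m, a metallothionein, at 0.42, and the intracellular transporters Slc30a6 at 0.22 and Slc30a5 at 0.13. In ET against AD 0 of the 24 were, where 2.74% of all genes were. In PF against AD 7 of the 24 were, where 16.4% of all genes were, 4 with lower values in PF (6.77% of all genes) and 3 with higher values (9.66%).

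In PF against AD, 3 of the 24 genes had an adjusted p-value below 0.05 by edgeR, a share to be read against 5.17% of all genes. Beside Slc30a1 they were Slc30a7, a transporter of the early secretory pathway, at 0.29 (SE 0.07, adjusted p-value 0.034) and Slc39a7, which releases zinc from the endoplasmic reticulum, at -0.16 (SE 0.04, adjusted p-value 0.043). In the comparisons with ET, Slc30a7 was at -0.25 in ET against PF (SE 0.11) and 0.04 in ET against AD (SE 0.11). The comparisons share the PF and AD libraries, so these values are not independent of each other.

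**Figure D5:**
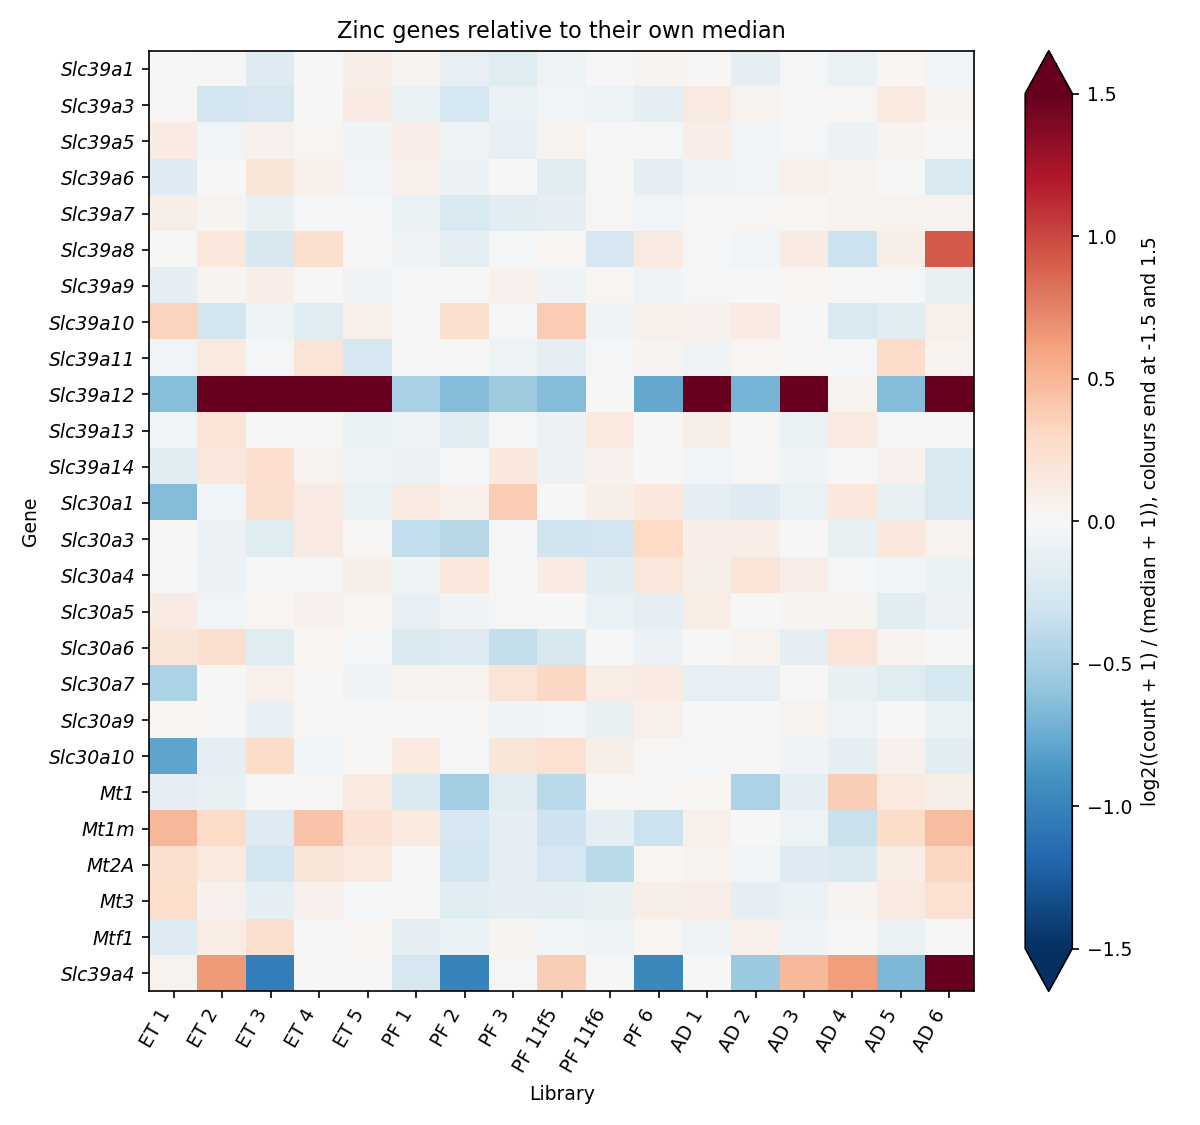
Log2 of normalized count + 1 over the median of the 17 libraries for the 25 zinc genes that passed the filter and for Slc39a4, which did not, with libraries in columns by diet and colours ending at 1.5 in either direction. Slc39a12 is the row of strong contrast, Slc39a8 and Slc39a4 stand out in AD replicate 6, and Slc30a1 and Slc30a10 are low in ET replicate 1.

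Between males and females, in the 9 ET and PF libraries with diet in the model, 0 of the 8 genes other than Slc39a12 passed the threshold by edgeR and 0 by DESeq2, and 0.0311% of 16068 genes did by edgeR. Their log2 fold changes of males over females lay between -0.07 and 0.22, and that of Slc39a12, given with no test, was 0.46 (SE 0.61) and lay between -0.12 and 1.44 when 1 library was left out. At an unadjusted p below 0.05, 0 of the 8 genes passed, as against 1.87% of all genes. For the interaction of sex and diet, 0 of the same 8 genes had an adjusted p-value below 0.01 by edgeR, nor did any of 16484 genes (0%), and 0 of the 8 were at an unadjusted p below 0.05, as against 1.4% of all genes. DESeq2 also called 0 of the 8. The interaction of Slc39a12, given with no test, was 0.95 (SE 1.28). It lay between 0.056 and 3.88 when 1 library was left out. The 3.88 was without ET replicate 3, which leaves the low replicate 1 as the only ET female.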

How the data were processed

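RNA was measured by paired-end sequencing. The authors processed the reads with fastp, mapped them to mRatBN7.2 with Bowtie2 2.4.2, which does not split reads across splice junctions, and counted fragments on exons with featureCounts 2.0.1 at a minimum mapping quality of 10. The authors deposited expected counts, each the average of the counts of 3 technical replicates without normalization, and 53.3% of them were whole numbers. They were rounded to whole numbers for the fits. Columns, which name animals, were tied to samples through the header of the study's own count table, which adds diet, sex and side, and through the sample labels. The PF males 11f5 and 11f6 keep their animal names, because the labels do not tell which replicate is which.

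Low counts were filtered with filterByExpr, libraries scaled by TMM, and the fits made over all genes in edgeR 4.0.16 (R 4.3.3) by its quasi-likelihood test, with Benjamini-Hochberg adjustment. An SE is that of a log2 fold change. The libraries the study left out were not in the main comparisons. All 40 pairs of libraries within a diet differed by more than sampling noise, with a smallest chi-square per gene of 2.87. Alternatives were DESeq2 1.42.0, median-of-ratios scaling, no filter, sums of technical replicates, a fold change threshold of 1.5, sex as a covariate, 1 fit of the 3 diets, the replicate number as a block, all 17 libraries and leaving out each library in turn. The fits were tested on simulated data.

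The genes, gene lists and comparisons were chosen with earlier results of these data known. The rule for naming genes covered the 9 genes, zinc genes past the threshold, the 5 genes most like Slc39a12 over 17 and over the 11 ET and AD libraries, the 3 annotated genes on either side of Slc39a12, genes that overlap the 9, and the most abundant marker of each cell type list. Of these, 1 gene is not reported here, and of the most abundant markers Slc17a7 alone is named, the lists being given by their summed levels where a result touches them. Slc39a12 enters no count of genes past the threshold between diets or sexes. Other names were added after their values were seen. Of the 34322 symbols, 27234 (79.3%) matched the GRCr8 gene list, all 9 genes among them. Python 3.11.15 was used for levels and plots.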

Additional observations from a re-analysis of the deposited data

Results flagged for a closer look

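The other 8 genes in 3 diets made 24 groups, and 2 of them had a library far from the others by Dixon's test at the 95% level, where chance alone gives about 1 group in 20. The value beside each is the gap to the nearest library divided by the range of the group. Slc39a8 was highest in AD replicate 6, at 127 normalized counts against 52.9 to 72.3 in the other AD libraries (0.738). That library had a summed level of 1108 CPM for the pineal markers, and the part of pineal RNA in this value was not tested. Slc30a1 was highest in AD replicate 4, at 423 against 325 to 354 (0.701). AD replicate 4 is a choroid-rich library that the study left out.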

How the results depend on the processing

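The count of 0 of the 8 genes past the threshold held in all 3 diet comparisons under every alternative run. So did the count of 0 of the 24 zinc genes beside Slc39a12, the count of 0 of the 8 between the sexes and that for sex by diet. Slc39a12 has no call to lose, and its log2 fold change over the alternatives lay between 2.23 and 3.76 in ET against PF. The lowest was with the replicate block and the highest without ET replicate 1. Of the 5 genes most like Slc39a12, 1 was shared when ranked by Spearman's rho and 3 without the left-out libraries, over 17 libraries and again over ET and AD. The causes of these changes were not tested.

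Signs turned for values near 0. With the replicate block, which uses only libraries that carry a number, Slc39a8 was -0.082, Slc39a10 0.14 and Slc30a4 0.014 in ET against PF, Slc30a1 was -0.048 in ET against AD and Slc30a4 -0.00025 in PF against AD. In ET against PF only the numbers 1 and 3 occur in both diets, so the blocked difference rests on the libraries with those numbers. With sex as a covariate Slc39a8 was -0.0054 in ET against PF. Whether the numbers pair the samples could not be settled from so few same-numbered libraries. Their deviations correlated at -0.02 and 0.63 in ET and PF, where the other pairs ran from -0.56 to 0.46. Same-numbered libraries correlated at -0.29 to 0.13 in ET and AD and at -0.02 to 0.08 in PF and AD. The block changed no call of the 8 genes.

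Leaving out 1 library gave ranges that crossed 0 in ET against PF for Slc39a8 (-0.066 to 0.095) and Slc39a14 (-0.063 to 0.081), in ET against AD for Slc39a10 (-0.087 to 0.094), Slc39a14 (-0.014 to 0.13), Slc30a1 (-0.027 to 0.24), Slc30a10 (-0.20 to 0.12) and Mt3 (-0.086 to 0.056), and between the sexes for Slc39a12 (-0.12 to 1.44). Among the other 8 genes, 15 of 104 sex differences and 12 of 104 interactions changed sign over the alternatives and 0 were called.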

Other observations

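Slc39a4, a zinc importer best known from the intestine, did not pass the filter on low counts and is named here because of its value. It was at 131 normalized counts in AD replicate 6 and at 1.22 to 6.05 in the other 16 libraries. AD replicate 6 is the library with the high pineal markers and the highest Slc39a8.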
